A study of Mus musculus with 3 samples.

Results

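Natural killer (NK) cells were examined among leukocytes of untreated mouse blood, counted by single-cell RNA sequencing. Barcodes with 200 or more genes were taken as NK cells if their unique molecular identifiers (UMIs, counted molecules) met 4 conditions. Ncr1, Klrb1c and Klre1 had to sum to 3 or more, Cd3e, Cd3d and Cd3g to 1 or less, Cd79a, Cd79b and Ms4a1 to 2 or less, and Csf1r and Csf3r to 1 or less. The rule found 896 NK cells among 22688 barcodes, or 3.95%. The members were thus chosen by the UMI counts of these 11 genes, whose values are a description and were not tested. The 3 libraries, called replicates 1, 2 and 3, come from male mice aged 8, 9 and 10 weeks, 1 library per age. All mice were untreated, no strain or modified allele is given, and the labels do not say whether the libraries are separate animals. P-values therefore measure the spread between these libraries, which may be technical, and age and library cannot be told apart.

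NK cells are innate lymphocytes that kill infected, stressed or transformed cells without a rearranged antigen receptor. Activating receptors such as NKp46 (encoded by Ncr1), NKG2D (Klrk1) and Ly49H (Klra8) signal through small adaptor proteins, while inhibitory Ly49 and CD94/NKG2A receptors bind MHC class I and restrain killing. The lytic granule carries perforin and granzymes, and the transcription factors T-bet and Eomes shape the lineage. In blood, most NK cells are mature cells that circulate between marrow, spleen and tissue.

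The values that chose the cells were mostly far from the limit. The NK receptor sum, which the rule put at 3 or more, had a median of 16 UMIs in replicate 1, 17 in replicate 2 and 14 in replicate 3. The highest sums were 44, 41 and 35. In replicate 1, 3 barcodes that met the other conditions had a sum of 2, with 9, 3 and 5 UMIs of Gzma, and 2 members had a sum of 3, with 43 and 33 UMIs of Gzma. Replicates 2 and 3 had no barcode at either value, and their lowest members had a sum of 4. The members held medians of 3344, 3572 and 3417 UMIs per cell, close to the 3551.5, 3297 and 3152 UMIs of all barcodes. A further 150 barcodes reached the NK receptor sum and missed only the Cd3 condition, 53 missed only the B cell condition, 33 only the myeloid condition and 14 at least 2 of them. The doublet caller Scrublet marked 33, 46, 30 and 12 of these, and 9 of the 896 members. All 4 sets sit among all other cells.

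The share of NK cells differed among the libraries. They were 661 of 11004 barcodes in replicate 1, or 6.01% (95% exact binomial interval 5.57% to 6.47%). Replicate 2 had 146 of 5051, or 2.89% (2.45% to 3.39%), and replicate 3 had 89 of 6633, or 1.34% (1.08% to 1.65%). The intervals, which cover counting error only, do not overlap, and the mean was 3.41% ± 2.38 (SD, n = 3). Set against T cells of the same library, there were 17.2, 14.7 and 7.27 NK cells per 100 T cells. T cells were barcodes with a Cd3 sum of 3 or more, an NK receptor sum of 1 or less and the same limits on B and myeloid genes. The libraries differ in make-up as a whole, since T cells were 34.9%, 19.7% and 18.5% of barcodes in replicates 1, 2 and 3.

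The marker genes were high in NK cells of all 3 libraries. Levels are UMIs per 1000000 UMIs of the summed cells (CPM), and they are not compared between genes, since probes differ. Ncr1 stood at 2383, 2616 and 2277 CPM in NK cells of replicates 1, 2 and 3, against 1.02, 1.53 and 1.59 CPM in T cells. Klrb1c, which encodes the receptor NK1.1, stood at 1163, 1061 and 922 CPM in NK cells and at 1.79, 0.766 and 1.59 CPM in T cells. The granzyme A gene Gzma, which the rule did not use, reached 10644, 10760 and 8309 CPM in NK cells, against 18.2, 26.8 and 30.2 CPM in T cells. Gzma was found in 97.8% ± 1.16 of NK cells (SD, n = 3) and in 1.72% ± 0.78 of T cells, whose median depth was 3564 to 3893 UMIs. Klra8, which encodes the activating receptor Ly49H, stood at 1452, 1221 and 1217 CPM in NK cells and at 1.02, 0.766 and 2.27 CPM in T cells. Prf1, the perforin gene, stood at 2228, 2392 and 1727 CPM in NK cells, against 80.3, 87.3 and 80.7 CPM in T cells. For Gzma, Klra8 and Prf1 the lowest NK library lay far above the highest T cell library. For Ncr1 and Klrb1c the rule and the T cell limits set the gap. Gzma, Klra8 and Prf1 helped to name the cells and are described without a test. Of the 6 markers, Ncr1, Klrb1c and Klre1 were fixed by the rule, so the name rests on Gzma, Klra8 and Prf1.

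**Figure D1:**
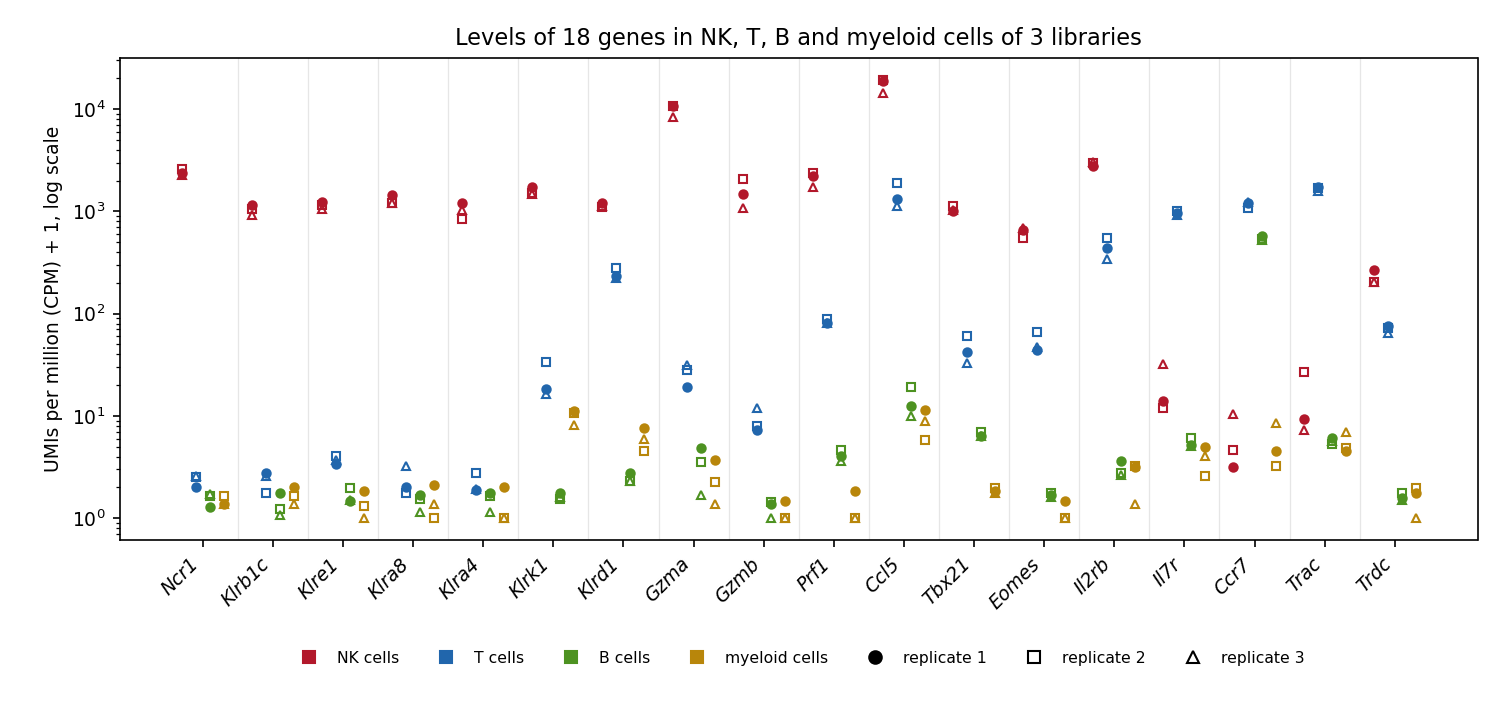
Levels of 18 genes in NK, T, B and myeloid cells, as CPM plus 1 on a log scale, with 1 symbol per library (circle, square and triangle for replicates 1, 2 and 3). Receptor, granule and Tbx21 and Eomes points of NK cells sit above those of every other gate, Il7r, Ccr7 and Trac points sit far below those of T cells, and Trdc points lie above them.

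The sequences upstream of Ncr1 and Gzma are shown because these genes mark the cells and share a stretch with the core letters bound by RUNX factors, of which Runx3 was higher in NK cells than in T cells. Both are 250 bases up to the annotated start from RefSeq (GRCm38.p6), on the gene's strand, with matches to TGTGGT or its reverse ACCACA in capitals.
Ncr1, chr7:4337465-4337714, plus strand: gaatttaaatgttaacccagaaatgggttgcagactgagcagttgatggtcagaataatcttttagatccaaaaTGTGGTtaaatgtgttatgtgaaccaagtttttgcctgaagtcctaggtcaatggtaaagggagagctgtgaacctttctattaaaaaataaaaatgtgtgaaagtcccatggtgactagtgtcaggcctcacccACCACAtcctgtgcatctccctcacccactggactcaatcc
Gzma, chr13:113100982-113101231, minus strand: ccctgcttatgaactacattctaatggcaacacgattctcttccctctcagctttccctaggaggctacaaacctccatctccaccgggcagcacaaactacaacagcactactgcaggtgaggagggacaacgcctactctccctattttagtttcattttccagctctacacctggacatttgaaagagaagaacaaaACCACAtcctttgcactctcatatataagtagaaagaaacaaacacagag
The match began 176 and 41 bases before the start of Ncr1 and 50 bases before that of Gzma. Of 27025 promoter windows of the same length, 14.2% hold this motif on either strand. The exact T-box letters GGTGTGA (3.31% of windows) and ETS letters AGGAAG (29.2% of windows), also searched on both strands, have no match in either window. Other letters that T-box or ETS factors can bind were not searched. The 10-base run ACCACATCCT was picked after the windows were read, as the longest run around a RUNX match that both share. It occurs in 17 of the 27025 windows, or 0.0629%. A run of this length is rare in any case, and no expected share was worked out, so the value is a description only. A match is a description of letters and not a bound site.

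Against all other cells, 2120 of 10908 genes tested were higher in NK cells (19.4%) and 2845 were lower (26.1%), so 45.5% of genes passed the threshold in either direction. Against T cells, 2578 of 9703 genes were higher (26.6%) and 2680 lower (27.6%), or 54.2% in all. The tests used edgeR's quasi-likelihood test on UMIs summed per library, with the library as a block and a Benjamini-Hochberg adjusted p of 0.05. Both comparisons use the same NK sums, and T cells are among all other cells, so the 2 are not independent of each other. The median log2 fold change of all genes was -0.05 against all other cells and -0.02 against T cells. Under plain library totals the median against T cells moved to -0.14, with 2066 genes higher and 3302 lower.

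The killer lectin receptors, a family whose 24 genes asked for here all lie on chromosome 6, were nearly all higher in NK cells. Klra1, Klra9, Klra10 and Klrc2 were not analysed here. Of 17 listed members outside the rule and the markers, all 17 were tested against all other cells, and 15 were higher and 2 lower in NK cells. Their median log2 fold change was 5.76, or 6.82 without the barcodes that reached the NK receptor sum and missed another condition. With T, B and myeloid cells weighted equally in place of all other cells, the median was 8.37, with 15 higher and 1 lower. Against T cells 15 were tested and all 15 were higher, with a median of 6.42. The T cells were limited to an NK receptor sum of 1 or less. T cells with more UMIs of those receptors were thus left out, and how far this widened the family's differences was not tested.

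Klrk1, the gene for the stress-ligand receptor NKG2D, stood at 1716, 1529 and 1475 CPM in NK cells of replicates 1, 2 and 3, against 17.3, 32.4 and 15.2 CPM in T cells. Its log2 fold change against T cells was 6.42 ± 0.27 (SE, adjusted p = 0.00018). Klrd1, which encodes the CD94 chain that pairs with NKG2 proteins, stood at 1214, 1099 and 1132 CPM in NK cells and at 233, 276 and 222 CPM in T cells. The groups did not overlap, and its log2 fold change was 2.37 ± 0.08 (adjusted p = 1.3e-21). Klrd1 and Klrk1 stood far above T cells in every library. Klri2, whose product pairs with that of Klre1, stood at 891, 857 and 840 CPM in NK cells, against 0.447, 0.255 and 0 CPM in T cells, a log2 fold change of 11.36 ± 0.15. Klrb1b, which encodes an inhibitory receptor for the ligand Clr-b, averaged 434 CPM ± 47.1 in NK cells and 0.544 CPM ± 0.282 in T cells (SD, n = 3), a log2 fold change of 9.66 ± 0.16. Klrb1a averaged 274 CPM ± 22.1 in NK cells, against 0.322 CPM ± 0.114 in T cells.

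Klra2 and Klra17 were the 2 members that were lower in NK cells than in all other cells. Klra2 had 2 UMIs in all NK cells together and averaged 78.3 CPM ± 26.97 in all other cells. The pooled level of all other cells was 134 times that of NK cells, with a 95% counting interval of 37.1 to 1108. Its UMIs lay mainly in myeloid cells, where Klra2 averaged 389 CPM. Klra17 had 0 UMIs in NK cells and averaged 28.7 CPM in myeloid cells. Both were too low in NK and T cells to be tested between them.

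Against all other cells the log2 fold changes of the leading receptors were held down by the 250 barcodes that reached the NK receptor sum but missed another condition. Klra4, which encodes the activating receptor Ly49D, had a log2 fold change of 7.77 ± 0.73 against all other cells and of 10.49 ± 0.24 without those barcodes. Klri2 moved likewise between 7.62 ± 0.66 with them and 9.73 ± 0.32 without them. Gzmb, the granzyme B gene, had 7.39 ± 0.63 with them and 8.88 ± 0.45 without them. All 3 calls stayed the same.

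The Ly49 genes were spread unevenly over the NK cells. Klra8 had a UMI in 90.2%, 84.2% and 76.4% of NK cells of replicates 1, 2 and 3, Klra4 in 57.9%, 39.7% and 53.9%, and Klra7 in 31.9% ± 4.59 (SD, n = 3). T cells gave 0.271% ± 0.0847 for Klra8, 0.365% ± 0.038 for Klra4 and 1.27% ± 0.224 for Klra7. The median NK cell had UMIs of 2 Klra genes in every library, and 3.78%, 8.90% and 12.4% had none of the 8 Klra genes counted.

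Klra8 and Klra4 together were found in 53.9%, 34.9% and 46.1% of NK cells. Klra8 without Klra4 was found in 36.3%, 49.3% and 30.3%, Klra4 without Klra8 in 4.08%, 4.79% and 7.87%, and neither in 5.75%, 10.96% and 15.7%. Cells with Klra4 alone were thus the smallest of these classes in all 3 libraries. The absences were not limited to cells with few UMIs of the other gene. Of the 420 cells with 3 or more Klra8 UMIs in replicate 1, 37.1% had no Klra4 UMI, and of the 323 cells with 3 or more Klra4 UMIs, 5.26% had no Klra8 UMI. In replicate 2 these shares were 59.0% of 83 cells and 14.6% of 48 cells, and in replicate 3 they were 38.5% of 52 cells and 15.0% of 40 cells. The GENCODE transcripts of Klra8 and Klra4 share none of their 25-base stretches. Klra8 shares 29.4% of its stretches with Klra9, which was not analysed here, and Klra3 shares 52.2% with other Klra genes, so the level of Klra3 is uncertain.

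**Figure D2:**
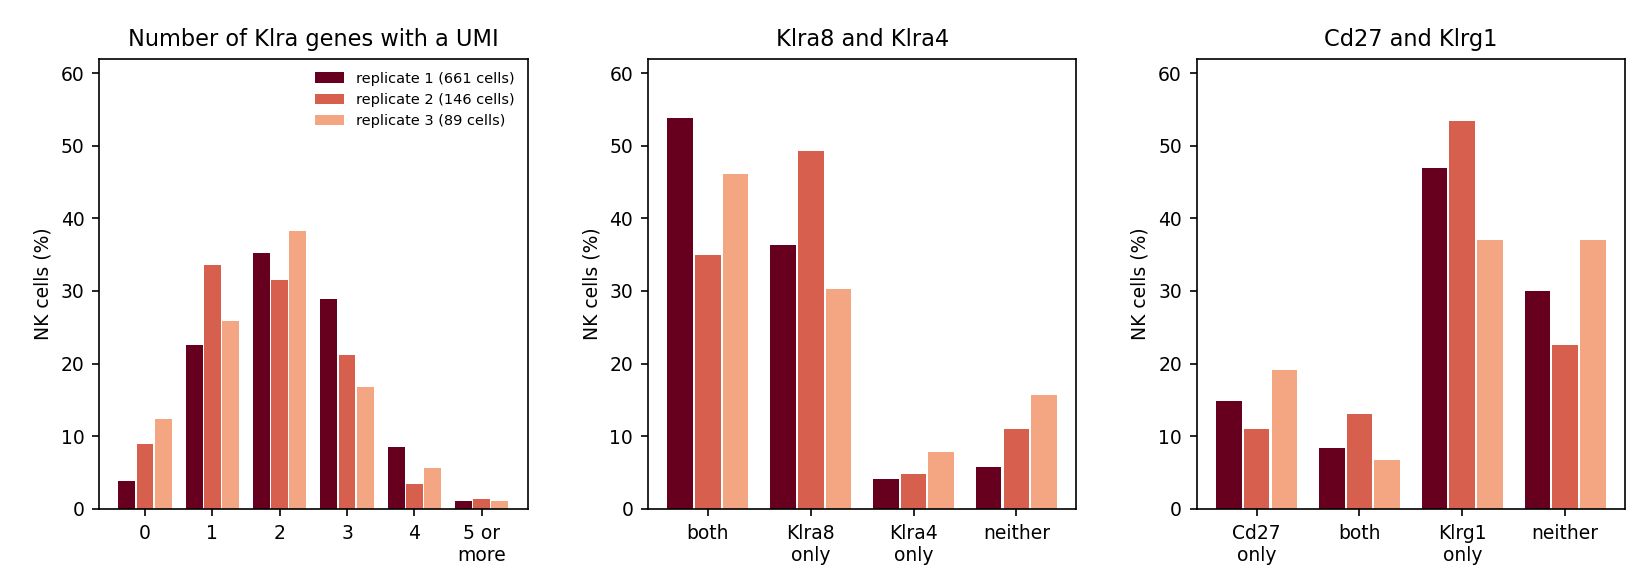
Shares of NK cells in percent, 1 bar per library, by the number of Klra genes with a UMI (left), by Klra8 and Klra4 (middle) and by Cd27 and Klrg1 (right). Most cells have 1 to 3 Klra genes, cells with Klra4 alone are below 8% in every library, and replicate 3 has the lowest share with Klrg1 alone and the highest with Cd27 alone.

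Other genes were compared by the share of NK cells with a UMI and the share that an even rate in all NK cells, at each cell's own depth, would give. Over 1486 genes with a mean of 0.5 or more UMIs per NK cell in every library, the median shortfall was 2.35 percentage points, and 55 genes fell short by over 10 points. Of these 55 genes, 7 were killer lectin receptors. How many of the 1486 genes belong to that family was not counted, so the 7 is no result about the family. Klrd1 and Klra4 had nearly the same mean in replicate 1, with 4.24 and 4.18 UMIs per NK cell. Klrd1 was found in 94.9% of cells, where an even rate would give 97.1%, and Klra4 was found in 57.9%, where an even rate would give 97.0%. The mean shortfall over the libraries was 0.700 points for Klrd1 and 44.8 points for Klra4, the widest of all 1486 genes.

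Thy1, which encodes a surface glycoprotein best known from T cells, followed with a mean shortfall of 42.9 points. It was found in 25.1% of NK cells of replicate 1, where an even rate would give 67.7%. Klrc1, which encodes the inhibitory receptor NKG2A, fell short by 41.3 points and Klrg1, a receptor of mature NK cells that binds cadherins, by 28.4 points. Ccl4, the gene of a chemokine released on activation, fell short by 30.7 points. In replicate 1, 5 cells held 48.8% of its 887 UMIs. Gzmb fell short by 21.9 points, against 2.16 points for Gzma and 2.90 points for Prf1. Gzma and Prf1 were thus found in nearly every cell, while Klra4, Klrc1 and Klrg1 were found in part of them.

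**Figure D3:**
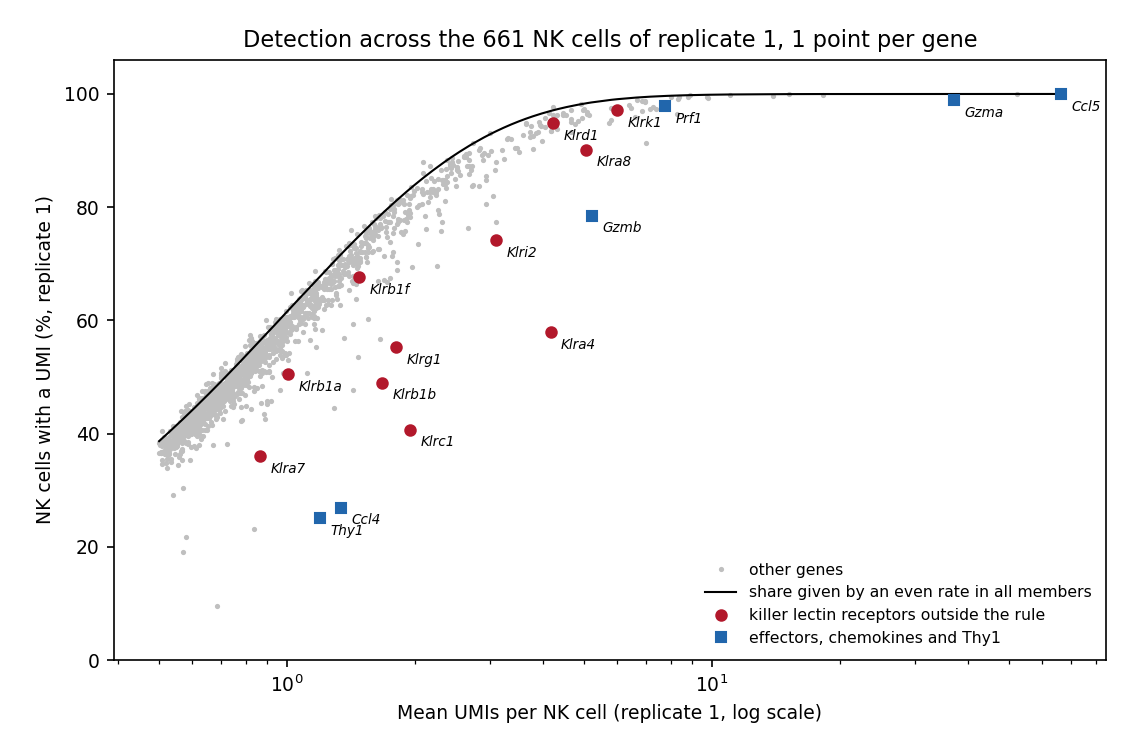
Share of the 661 NK cells of replicate 1 with a UMI (percent) against the mean number of UMIs per NK cell (log scale), 1 point per gene. The black line is the share that an even rate in all cells would give. Klrd1, Klrk1, Gzma, Prf1 and Ccl5 lie close to the line, and Klra4, Klrc1, Klrb1b, Klrg1, Thy1 and Ccl4 lie far under it.

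The windows upstream of Klra8 and Klra4 are shown because the 2 neighbours differ in how many cells hold them. Both are 250 bases before the start from RefSeq (GRCm38.p6), on the gene's strand. Neither holds any of the 3 exact strings of letters searched above.
Klra8, chr6:130129899-130130148, minus strand: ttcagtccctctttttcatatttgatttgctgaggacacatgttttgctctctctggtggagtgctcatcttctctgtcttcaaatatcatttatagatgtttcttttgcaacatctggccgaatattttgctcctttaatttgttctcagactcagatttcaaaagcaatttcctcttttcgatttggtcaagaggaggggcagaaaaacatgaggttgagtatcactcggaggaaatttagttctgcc
Klra4, chr6:130067272-130067521, minus strand: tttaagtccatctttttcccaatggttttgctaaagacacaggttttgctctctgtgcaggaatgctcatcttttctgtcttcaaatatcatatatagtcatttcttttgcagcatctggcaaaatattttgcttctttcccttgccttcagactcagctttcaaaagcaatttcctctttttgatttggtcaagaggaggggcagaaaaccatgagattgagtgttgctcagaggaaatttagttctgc
In a global alignment, 212 of 251 columns were identical (84.5%), against 43.6% for Klra8 and Ncr1.

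Other receptors and adaptors differed in both directions. The shares that were lower were near those of all genes, 26.1% against all other cells and 27.6% against T cells. Of 25 genes tested against all other cells, 13 were higher, 6 lower and 6 did not pass, with a median log2 fold change of 0.81. With T, B and myeloid cells weighted equally, 19 of 24 were higher and 2 lower, with a median of 2.57. Of 23 tested against T cells, 12 were higher, 7 lower and 4 did not pass, with a median of 0.66. Tyrobp, which encodes the adaptor DAP12 of activating Ly49 receptors, stood at 4353, 3805 and 3988 CPM in NK cells, against 25.1, 12.5 and 8.84 CPM in T cells (log2 fold change 8.01 ± 0.32, adjusted p = 0.00035). Fcer1g, the adaptor of NKp46 and of the Fc receptor CD16, stood at 2798, 2660 and 2843 CPM in NK cells, against 16.8, 22.2 and 18.4 CPM in T cells (7.34 ± 0.10). Myeloid cells held both adaptors too, at means of 7059 CPM for Tyrobp and 2750 CPM for Fcer1g.

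Hcst, which encodes the adaptor DAP10 of NKG2D, stood at 351, 357 and 368 CPM in NK cells and at 357, 361 and 309 CPM in T cells, and did not pass the test (adjusted p = 0.080). The kinase genes differed. Syk averaged 469 CPM ± 30.8 in NK cells, 5.32 ± 0.25 on the log2 scale above T cells. Against all other cells Syk was lower in NK cells, with 469 CPM ± 30.8 against 1164 CPM ± 332 (-1.25 ± 0.14), but with T, B and myeloid cells weighted equally the difference was 0.54. Zap70 stood at 328, 268 and 324 CPM in NK cells, against 385, 357 and 390 CPM in T cells, and did not pass (adjusted p = 0.054). Lat, the scaffold of T cell receptor signalling, averaged 160 CPM ± 24.0 in NK cells and 1093 CPM ± 105 in T cells, a log2 fold change of -2.69 ± 0.09. Cd244a, which encodes the receptor 2B4, stood at 703, 706 and 676 CPM in NK cells, against 3.13, 1.02 and 2.49 CPM in T cells. Its log2 fold change was 8.15 ± 0.13 against T cells, but 2.96 ± 0.18 against all other cells. Cd244a had a UMI in 88.6% of NK cells and also in 53.4% of myeloid cells (means of 3 libraries). Sh2d1b1, the gene of the 2B4 adaptor EAT-2, averaged 166 CPM ± 5.75 in NK cells and had 2 UMIs in all T cells. Against all other cells its log2 fold change was 3.15 ± 0.33, and it had a UMI in 16.1% of myeloid cells. Slamf6 ran the other way, with 13.8 CPM ± 4.13 in NK cells and 250 CPM ± 9.89 in T cells (-4.28 ± 0.16). Pdcd1, which encodes the checkpoint receptor PD-1, had 0 UMIs in the 896 NK cells and stood between 5.87 and 9.75 CPM in T cells.

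Most cytotoxic effector genes were higher in NK cells. Of 20 genes tested against all other cells, 13 were higher, 3 lower and 4 did not pass, with a median log2 fold change of 0.73 (1.51 under equal weights). Against T cells 14 of 20 were higher and 3 lower, with a median of 0.82. Gzmb stood at 1494, 2085 and 1072 CPM in NK cells of replicates 1, 2 and 3, against 6.26, 6.89 and 10.9 CPM in T cells. Its log2 fold change was 7.78 ± 0.29 against T cells (adjusted p = 0.0001) and 7.39 ± 0.63 against all other cells (adjusted p = 0.0077). The second call was lost without replicate 3 (adjusted p = 0.162). Fasl, the gene of the death ligand Fas ligand, stood at 374, 390 and 365 CPM in NK cells, against 15.1, 15.3 and 10.9 CPM in T cells (4.84 ± 0.11). Ifng, the gene of interferon gamma, averaged 90.5 CPM ± 4.37 in these untreated NK cells and 1.82 CPM ± 0.0334 in T cells (5.71 ± 0.25).

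Serpinb9, which encodes an inhibitor of granzyme B, averaged 426 CPM ± 21.0 in NK cells and 18.6 CPM ± 1.37 in T cells, a log2 fold change of 4.602 ± 0.10. Nkg7, a granule membrane gene, stood at 5224, 5315 and 5101 CPM in NK cells, against 668, 742 and 624 CPM in T cells (3.06 ± 0.07). The genes lower than in T cells were Tnfsf10, which encodes the death ligand TRAIL, Lyst, a lysosome trafficking gene, and Gzmm. Tnfsf10 averaged 11.2 CPM ± 7.09 in NK cells and 38.5 CPM ± 4.09 in T cells. Gzmm stood at 13.9, 11.03 and 18.9 CPM in NK cells, against 29.3, 34.2 and 17.9 CPM in T cells, so replicate 3 did not show the difference. Gzmk was low in both, at 9.10, 3.68 and 12.6 CPM in NK cells and 5.88, 5.11 and 7.94 CPM in T cells (adjusted p = 0.23).

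**Figure D4:**
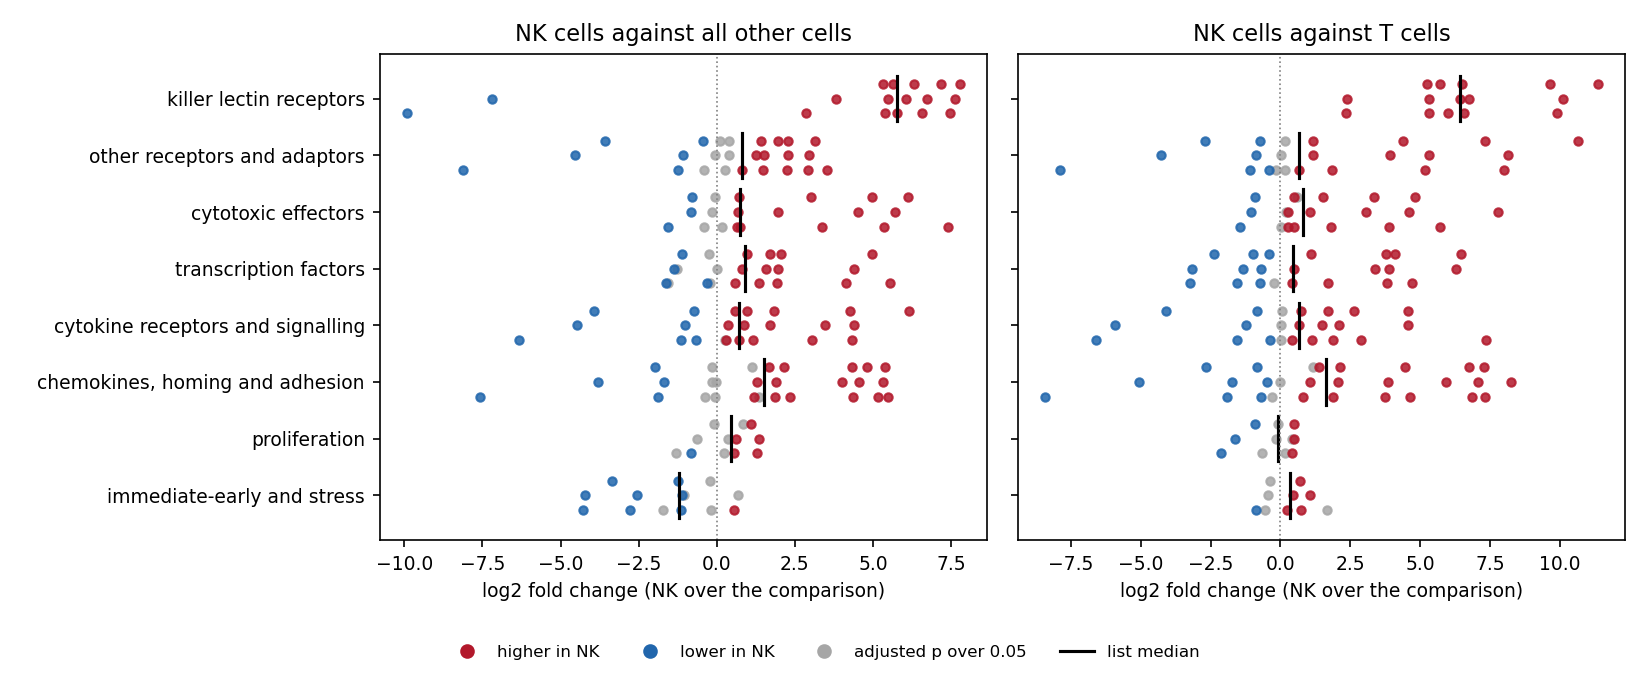
Log2 fold changes of the genes in 8 lists, for NK cells against all other cells (left) and against T cells (right), 1 point per gene. Red genes were higher and blue genes lower in NK cells at an adjusted p of 0.05, grey genes did not pass, and the black bar is the list median. Killer lectin receptors lie farthest to the right, with 2 lower genes in the left panel.

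Transcription factor genes differed in both directions. The share that was lower lay below the 26.1% of all genes against all other cells, and above the 27.6% against T cells. Of 22 tested against all other cells, 13 were higher and 4 lower, with a median log2 fold change of 0.90. Under equal weights of T, B and myeloid cells 17 were higher and 2 lower, with a median of 2.45. Against T cells, 12 of 22 were higher and 9 lower, with a median of 0.46. Tbx21, which encodes T-bet, stood at 999, 1132 and 1038 CPM in NK cells, against 41.2, 60.004 and 31.7 CPM in T cells (log2 fold change 4.70 ± 0.10, adjusted p = 9e-20). Eomes stood at 654, 542 and 686 CPM in NK cells, against 43.2, 64.6 and 46.3 CPM in T cells (3.797 ± 0.19, adjusted p = 3.9e-05). Zeb2, a factor of terminal NK cell maturation, averaged 803 CPM ± 130 in NK cells and 11.5 CPM ± 1.82 in T cells (6.28 ± 0.09). Irf8 averaged 899 CPM ± 166 in NK cells and 10.9 CPM ± 0.544 in T cells (6.48 ± 0.10). Both genes were also found outside these 2 groups (means of 3 libraries). Zeb2 had a UMI in 57.4% of myeloid cells, against 84.0% of NK cells. Irf8 had a UMI in 72.6% of B cells and 26.9% of myeloid cells, against 76.4% of NK cells.

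Id2, an inhibitor of E proteins that innate lymphocytes need, averaged 2090 CPM ± 33.7 in NK cells and stood between 202 and 227 CPM in T cells. Prdm1, the gene of Blimp-1, averaged 115 CPM ± 20.4 in NK cells and 7.73 CPM ± 0.609 in T cells (4.09 ± 0.18). Lef1 averaged 126 CPM ± 16.8 in NK cells and 1303 CPM ± 58.8 in T cells (-3.18 ± 0.09). Tcf7, which encodes TCF-1, stood at 103, 86.4 and 230 CPM in NK cells, against 1227, 1174 and 1274 CPM in T cells (-3.23 ± 0.26). Tcf7 did not pass against all other cells (-1.57 ± 0.52, adjusted p = 0.13). Zfp683, which encodes Hobit, a factor of tissue-resident lymphocytes, had 2.17, 0 and 0 CPM in NK cells and 9.08, 9.19 and 4.76 CPM in T cells.

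Cytokine receptor and signalling genes were more often higher than lower in NK cells. The shares that were lower lay near those of all genes, 26.1% against all other cells and 27.6% against T cells. Of 23 tested, 15 were higher and 7 lower against all other cells, and 13 were higher and 7 lower against T cells, with medians of 0.70 and 0.66. Il2rb, the signalling chain for interleukin-15 and interleukin-2, stood at 2811, 2973 and 3032 CPM in NK cells, against 437, 542 and 341 CPM in T cells (log2 fold change 2.87 ± 0.11, adjusted p = 9.7e-11). Il12rb2, a chain of the interleukin-12 receptor, averaged 347 CPM ± 67.3 in NK cells and 2.40 CPM ± 1.52 in T cells (7.35 ± 0.15). Il18rap, a chain of the interleukin-18 receptor, averaged 1148 CPM ± 122 in NK cells and 52.8 CPM ± 10.96 in T cells (4.57 ± 0.09). Il7r, the interleukin-7 receptor chain of naive T cells and tissue innate cells, stood at 13.002, 11.03 and 31.5 CPM in NK cells, against 973, 1018 and 921 CPM in T cells (-5.93 ± 0.15).

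Il6ra averaged 3.29 CPM ± 0.344 in NK cells and 335 CPM ± 6.33 in T cells (-6.59 ± 0.19). Il21r averaged 27.1 CPM ± 14.6 in NK cells and 326 CPM ± 2.83 in T cells (-4.08 ± 0.26). Kit, which encodes the stem cell factor receptor, was low but higher than in T cells, at 16.0, 23.9 and 56.6 CPM in NK cells against 1.47, 0.511 and 0.680 CPM in T cells. In replicate 3, 5 cells held 77.8% of its 18 UMIs in NK cells.

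Chemokine, homing and adhesion genes were mostly higher in NK cells. Of 28 tested against all other cells, 16 were higher and 5 lower, with a median log2 fold change of 1.504 (2.44 under equal weights). Against T cells 17 were higher and 8 lower, with a median of 1.62. That lower share was near the 27.6% of all genes. Ccl5, a chemokine gene held ready in cytotoxic cells, stood at 18972, 19505 and 14339 CPM in NK cells, against 1330, 1895 and 1133 CPM in T cells (3.74 ± 0.08, adjusted p = 4.2e-26). Every NK cell of every library had a Ccl5 UMI. S1pr5, the sphingosine-1-phosphate receptor that lets NK cells leave lymphoid organs, averaged 533 CPM ± 39.0 in NK cells and 3.66 CPM ± 1.66 in T cells (7.31 ± 0.12). S1pr1, the receptor that T cells use for exit, averaged 134 CPM ± 30.6 in NK cells and 858 CPM ± 66.8 in T cells (-2.65 ± 0.09).

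Ccr7, the lymph node homing receptor, had 10 UMIs in all NK cells together, or 5.09 CPM ± 3.84, against 1183 CPM ± 83.9 in T cells (-8.42 ± 0.18). Cmklr1, the chemerin receptor gene, averaged 202 CPM ± 36.0 in NK cells and 0.870 CPM ± 0.621 in T cells (8.26 ± 0.22). Itgax, which encodes CD11c, averaged 456 CPM ± 77.0 in NK cells and 3.27 CPM ± 0.877 in T cells. Itgam, which encodes CD11b of mature NK cells, stood at 674, 781 and 443 CPM in NK cells, against 5.62, 7.40 and 5.67 CPM in T cells. Myeloid cells held both genes too (means of 3 libraries). Itgam had a UMI in 90.2% of myeloid cells and 78.9% of NK cells, and Itgax in 25.35% and 57.3%. Itga2, the gene of the NK marker CD49b, averaged 350 CPM ± 48.9 in NK cells and 9.87 CPM ± 1.11 in all other cells (5.17 ± 0.14).

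Cxcr6, which marks liver-type innate cells, had 6 UMIs in NK cells, all in replicate 1, and averaged 67.7 CPM ± 11.7 in T cells. The maturation markers Cd27 and Klrg1 divided the cells into 4 classes by the presence of a UMI, so the shares depend on depth. Cd27 was found in 24.3% and Klrg1 in 55.2% of NK cells (means of 3 libraries). With NK cells of 2000 or more UMIs cut at random to 2000, these shares were 15.6% and 48.5%. Cd27 alone was found in 14.8%, 10.96% and 19.1% of NK cells, Klrg1 alone in 46.9%, 53.4% and 37.1%, both in 8.32%, 13.01% and 6.74%, and neither in 30.0%, 22.6% and 37.1%.

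Proliferation genes showed no common direction against T cells. Of 12 tested against all other cells, 5 were higher and 1 lower, with a median of 0.46. Of 11 tested against T cells, 3 were higher and 3 lower, with a median of -0.08. Both shares against T cells were near those of all genes, 26.6% higher and 27.6% lower. Mki67, the gene of the proliferation marker Ki-67, stood at 2.17, 7.35 and 0 CPM in NK cells, against 16.1, 10.2 and 8.16 CPM in T cells (log2 fold change -2.13 ± 0.50, adjusted p = 0.00058). Mcm6, a subunit of the replicative helicase, averaged 141 CPM ± 5.89 in NK cells and 113 CPM ± 3.71 in T cells (0.47 ± 0.10). The calls against T cells for Mcm5, Mcm6 and Stmn1, all 3 of the higher ones, were lost without replicate 1 (adjusted p = 0.0897, 0.0746 and 0.104). Of the 3 lower calls, 1 was left without replicate 1, that of Tubb5, so the call of Mki67 was lost too. DESeq2 called 1 higher and 1 lower.

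Most immediate-early and stress genes were lower in NK cells than in all other cells. Of 14 tested, 8 were lower and 1 higher than in all other cells, with a median of -1.21. Of 10 tested against T cells, 5 were higher and 1 lower, with a median of 0.34, and under plain library totals 3 were higher and 3 lower. Without the library block, under DESeq2 or without replicate 1, 3 were higher and 1 lower. Dusp1, which encodes a phosphatase that shuts down MAP kinases, stood at 19.9, 12.9 and 9.44 CPM in NK cells, against 28.6, 22.5 and 25.6 CPM in T cells and a mean of 1123 CPM in myeloid cells. Its log2 fold change was -4.28 ± 0.18 against all other cells, while against T cells it did not pass (-0.55 ± 0.24, adjusted p = 0.053). Ier2, an immediate-early gene, averaged 223 CPM ± 14.9 in NK cells and 114 CPM ± 10.2 in T cells (1.08 ± 0.09).

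The T cell receptor genes differed among themselves. Trac, the alpha constant gene, stood at 8.23, 25.7 and 6.29 CPM in NK cells, against 1748, 1683 and 1592 CPM in T cells (log2 fold change -7.13 ± 0.17, adjusted p = 2.5e-19). Trbc1, a beta constant gene, stood at 764, 710 and 764 CPM in NK cells, against 1119, 991 and 1095 CPM in T cells, only 0.40 ± 0.07 lower on the log2 scale. Trbc1 was higher in NK cells than in all other cells (1.28 ± 0.16, adjusted p = 3.3e-05). The other beta constant gene, Trbc2, stood at 155, 208 and 198 CPM in NK cells and was lower in both comparisons. Trbc2 had a UMI in 34.0% of NK cells and 95.8% of T cells (means of 3 libraries). Trdc, the delta constant gene, stood at 264, 202 and 204 CPM in NK cells, against 74.0, 71.0 and 63.7 CPM in T cells, and was higher (1.84 ± 0.10, adjusted p = 1.5e-16). The 22 Trbv segments measured summed to 12.6, 34.9 and 9.44 CPM in NK cells, against 1968, 1961 and 1978 CPM in T cells. Tcrg-C1, Tcrg-C2, Sox13 and Il23r, 4 of the 6 genes of the gamma-delta T cell list, had 0 UMIs in all NK cells.

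Markers of other cell types were present at differing levels in NK cells. The 12 T cell markers summed to 2258, 2399 and 2592 CPM in NK cells, against 5080, 2996 and 2734 CPM in all other cells and 11815 to 12104 CPM in T cells. The 7 platelet markers summed to 28.2, 268 and 189 CPM in NK cells, against 13.2, 198 and 142 CPM in T cells, and 3 of 6 tested were higher than in T cells. Their part in the results was not tested. The 9 B cell markers summed to 270 to 581.8 CPM in NK cells, against 6759 to 14491 CPM in all other cells. The 9 monocyte markers summed to 154 to 184 CPM in NK cells, against 2851 to 4734 CPM in all other cells, and the 7 neutrophil markers to 195 to 254 CPM, against 9238 to 19058 CPM. The 7 markers of type 1 innate lymphoid cells, the close relatives of NK cells in tissue, summed to 36.8 to 88.1 CPM in NK cells. In T cells they summed to 1054 to 1172 CPM, of which Il7r alone averaged 971 CPM. Against T cells 4 of the 7 were lower, and Itga1, Tmem176a and Tmem176b did not pass. The 4 basophil markers stood at 49.8, 3.68 and 0 CPM in NK cells of replicates 1, 2 and 3. In replicate 1, 98.3% of their UMIs lay in 5 NK cells. Haemoglobin and other erythroid genes summed to 564, 13800 and 2623 CPM in NK cells of replicates 1, 2 and 3, against 727, 21008 and 5074 CPM in T cells. Without haemoglobin-high barcodes, no higher or lower count of the 8 lists moved by more than 3 genes, and the lower proliferation genes against T cells numbered 1 of 6 tested.

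Genes outside the lists also marked the NK cells. Cma1, which encodes a chymase best known from mast cells, stood at 411, 426 and 248 CPM in NK cells, against 0.128, 0.766 and 0.227 CPM in T cells (log2 fold change 10.54 ± 0.19). Phactr3, which encodes a regulator of protein phosphatase, averaged 130 CPM ± 8.74 in NK cells and had 3 UMIs in all T cells. Styk1, which encodes a kinase-like receptor, averaged 322 CPM ± 35.0 in NK cells and 1.94 CPM ± 1.59 in all other cells (7.25 ± 0.58, adjusted p = 0.007). Without the 250 barcodes at the NK receptor sum its log2 fold change was 8.75 ± 0.17. Cdh22, a cadherin gene, had 254 UMIs in NK cells and 0 in T cells, a level at least 640-fold higher against a floor of 3 counts over all T cells. Khdc1b and Khdc1c averaged 46.0 CPM ± 4.36 and 22.9 CPM ± 9.06 in NK cells, with 1 and 0 UMIs in T cells. Khdc1b had 137 UMIs in NK cells. Tnfsf12, the TWEAK gene, averaged 237 CPM ± 38.2 in NK cells and 0.192 CPM ± 0.169 in T cells, and Mcam averaged 128 CPM ± 17.4 in NK cells and 0.269 CPM ± 0.362 in T cells.

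The lowest genes were at 0 in NK cells. Tlr1, which encodes a Toll-like receptor for bacterial lipoproteins, had 0 UMIs in the 896 NK cells, against 93.9, 114 and 99.1 CPM in T cells and 97.1, 129 and 129 CPM in all other cells. Its level was at least 103.7-fold lower than in T cells, against 3 counts over all NK cells. St8sia1, a ganglioside synthesis gene, was at least 150-fold lower than in T cells, Cd40lg, which encodes the helper ligand CD40L, at least 98.0-fold lower, and Izumo1r, which encodes a surface protein of regulatory T cells, at least 101-fold lower. The segments Trbv3, Trbv31, Trbv13-3, Trbv16 and Trbv5 were all at 0 UMIs, with bounds of 115, 103, 98.8, 78.4 and 63.7. Fgd2, Fpr2 and Lyz1 also had 0 UMIs in NK cells and were at least 145-fold, 102-fold and 64.8-fold lower than in all other cells. Fgd2 averaged 280.1 CPM in B cells, and Fpr2 and Lyz1 averaged 424 CPM and 279 CPM in myeloid cells.

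The NK cells of the 3 libraries were compared among themselves for listed genes only. Over 132 list and marker genes at 20 CPM or more, the median ratio of the highest to the lowest library was 1.25, and 10 genes differed by over 2-fold. For 38 of these 132 genes the 95% Poisson intervals of 2 libraries lay apart. Replicate 1 was highest for 12 of them, replicate 2 for 12 and replicate 3 for 14. The share over all genes was not worked out, so whether 38 of 132 is many or few cannot be told. These intervals cover counting error only, and replicate 3 holds 89 cells.

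Replicate 3 stood apart for several genes. Cxcr3, a receptor for interferon-induced chemokines, stood at 70.2, 75.4 and 182 CPM in replicates 1, 2 and 3, and Tcf7 at 103, 86.4 and 230 CPM. Crtam, an activation-induced adhesion receptor, stood at 27.3, 18.4 and 78.6 CPM, but 96.0% of its UMIs in replicate 3 lay in 5 cells, and 17 of 25 in 1 cell. Gzmb, Klrg1 and Itgam were lowest in replicate 3, at 1072, 447 and 443 CPM, against 1494 to 2085, 517 to 824 and 674 to 781 CPM in replicates 1 and 2. Ccl4 was lowest there too, at 142 CPM against 384 and 364 CPM. Nr4a1, an immediate-early nuclear receptor gene, stood at 53.3 CPM in replicate 1 and at 3.68 and 3.15 CPM in replicates 2 and 3, and 5 cells held 69.9% of its 123 UMIs in replicate 1.

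**Figure D5:**
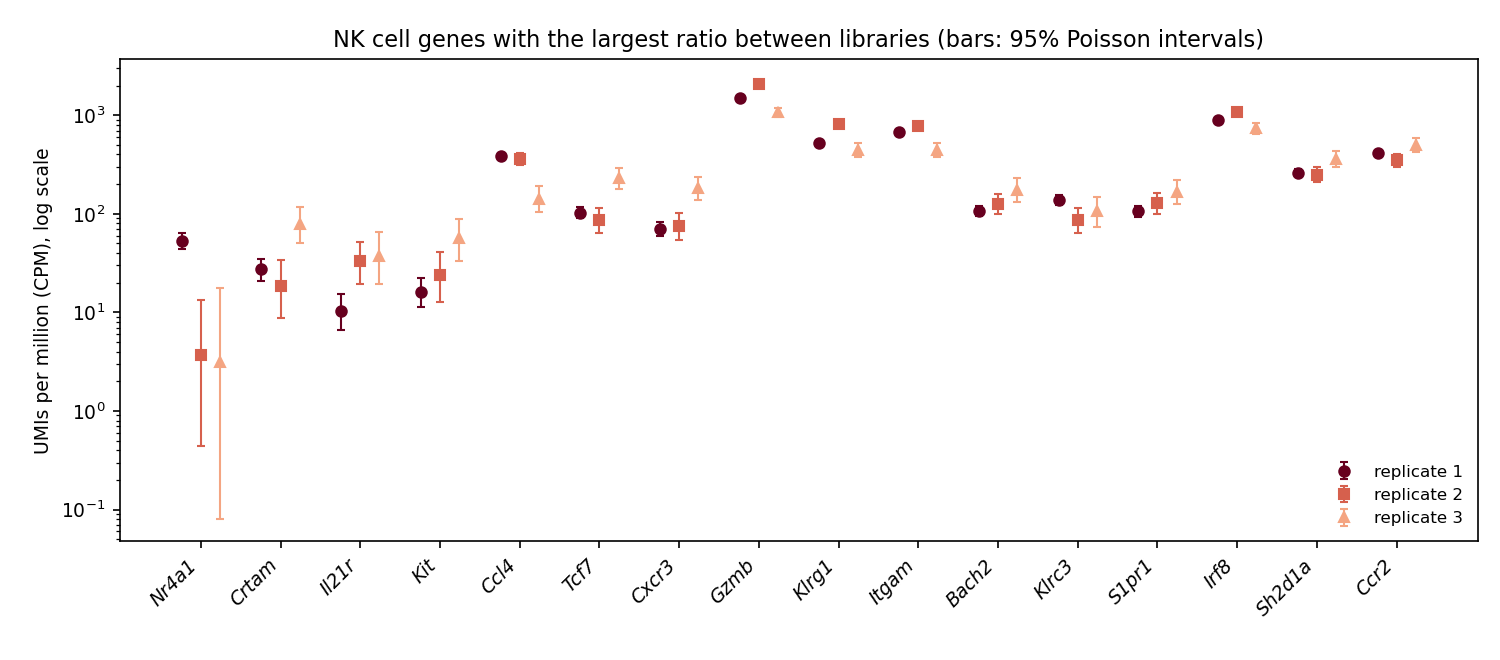
Levels in NK cells of the 16 genes with the widest ratio between libraries among those whose 95% Poisson intervals lie apart, as CPM on a log scale with those intervals. Replicate 3 (triangles) is highest for Crtam, Kit, Tcf7 and Cxcr3 and lowest for Ccl4, Gzmb, Klrg1 and Itgam, and replicate 1 is highest for Nr4a1.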

How the data were processed

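The members and the gene lists were chosen with earlier results of these data known. Per the labels, erythrocytes in the blood were lysed, leukocytes were sorted by nuclear dyes, then fixed and run on a multiplexed fixed-RNA probe kit, which counts probe pairs and not whole transcripts. The authors deposited raw UMI counts for 19059 genes, made with Cell Ranger 7.1.0 per the file headers. The barcode and feature lists hold identifiers and no measurement. Neither a genome build nor a probe set is stated in these sources. The libraries held 45718031, 19591648 and 23443660 UMIs. Barcodes under 200 genes (101, 685 and 396) were removed. Each pair of libraries shared 35 to 95 barcode sequences, or 0.693% to 1.43% of the smaller one.

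Counts were summed per library over NK cells, over T cells and over all other cells. They were tested with edgeR 4.0.16 in R 4.3.3 (quasi-likelihood, robust, TMM, filterByExpr), with the library as a block, since both sums of a pair come from the same library. The 11 rule genes stayed out of the tests. Levels are plain CPM as mean ± SD over 3 libraries. Named per list were the 4 highest and 3 lowest genes that passed, moved the same way in every library and reached 20 CPM, and per comparison the 10 highest and 10 lowest in no list. Other genes named were chosen after their values were seen. Doublets were marked with Scrublet in scanpy 1.11.5 and kept. On simulated counts, edgeR recovered 80% and 98% of genes changed to a log2 fold of -1 and 1 against all other cells. Against T cells it recovered 74% and 92%, with 11 and 5 false calls in the 2 comparisons. The simulation gave all genes the same low dispersion and both arms the same library effect, and changed 50 well-counted genes per fold. In the data 45.5% and 54.2% of genes were called, so these rates are not the error rates of the real tests. Alternatives were another normalization, no low-count filter, DESeq2 1.42.0, no block, each library left out, a stricter NK receptor sum, doublets or haemoglobin-high barcodes removed and an equal weight of T, B and myeloid cells. Chosen after seeing the data were the removal of NK receptor barcodes from all other cells and of NK cells with basophil UMIs.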

Additional observations from a re-analysis of the deposited data

How the results depend on the processing

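Against all other cells, leaving out each library gave 1554 to 2113 genes higher and 2123 to 2841 lower in NK cells. Against T cells it gave 1736 to 2594 higher and 1733 to 2742 lower, the lowest values without replicate 1. DESeq2 gave 1694 higher and 1711 lower against T cells. No other alternative moved these counts over all genes by over 1.5 times. Equal weights of T, B and myeloid cells moved list counts. These are given beside the killer lectin receptors, the other receptors and adaptors and the transcription factors. For cytotoxic effectors they were 15 higher and 4 lower. For chemokine, homing and adhesion genes only the median is given, and for the remaining lists neither is given. Without the replicate block, counts were 2048 higher and 2630 lower against all other cells, and 2543 and 2633 against T cells. Of 135 named results, 122 were never lost. An equal weight of T, B and myeloid cells, taken on the log2 scale, reversed Syk to 0.54, Lat to 2.29, Lef1 to 1.31, Cxcr6 to 0.66 and Atf3 to 0.074. This follows from the construction, since a lineage at a low level then counts as much as the others. Lat lost its call without haemoglobin-high barcodes (-0.71, adjusted p = 0.197), and the cause was not tested. Replicate 3 holds 89 NK cells, which limits its low genes.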
